A study of Saccharomyces cerevisiae BY4741 with 24 samples.

Results

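Glucose restriction was examined at a single age of the culture, 24 h after inoculation, when cells of the haploid budding yeast strain BY4741 (mating type a) had grown in YPD, a rich medium, with 0.5% glucose (the restricted cultures) or with 2% glucose (the control cultures). The comparison was defined by the sample labels alone, the 3 arrays marked 24 h and 0.5% glucose against the 3 marked 24 h and 2% glucose, which made 6 of the 24 arrays of the series. The other 18 arrays were of the same strain and media at 12, 18 and 48 h. All cultures carried the deletions of that strain, in HIS3, LEU2, MET17 and URA3, and were shaken at 30 °C from the same starting density. The series design calls the replicates biological triplicates, measured on Affymetrix Yeast Genome 2.0 arrays from biotin-labelled cRNA. It also states that restricted cells gained their potential for a long life from about 12 h onwards, increasingly until 48 h, and 24 h lies inside that window.

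Yeast in glucose medium first ferments the sugar to ethanol, and after the glucose is gone it respires the ethanol, acetate and glycerol it has released. Genes for the use of these carbon sources and of fatty acids are repressed by glucose. Chronological lifespan is the time that non-dividing cells stay alive in the spent medium, and starting with less glucose is the usual form of caloric restriction for it.

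Values are log2 signals, and every change is the 0.5% mean minus the 2% mean, given as estimate ± SE with n = 3 arrays each. Of 5449 genes, 1723 were higher in 0.5% glucose (31.6%) and 1712 were lower (31.4%) at an adjusted p under 0.05 in limma. A change of at least 2-fold was met by 81 of the higher genes (1.49%) and 93 of the lower ones (1.71%), and 2726 of the 3435 called genes changed by less than 1.5-fold. The median SD within a group was 0.0555 in 0.5% glucose and 0.0582 in 2% glucose, so the test reached small changes. These shares are the background for the gene groups described here, and a group with calls in each direction near them does not stand out. The arrays of the 2 media did not overlap for 3835 of the 5449 genes, so a lack of overlap does not set a gene apart. An array averages over a whole culture, so a lower level in each cell and fewer cells with the transcript cannot be told apart.

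Because all arrays were brought to one distribution, a change here states how a transcript moved against the rest. The poly-A RNAs spiked into each sample read 0.27 lower in 0.5% glucose, with an SE of 0.23. On a scale set by them the median gene moved to 0.27, against 0.004 on the deposited scale, and any change between -0.27 and 0 turned positive. The same shift was 0.40 at 12 h, 0.16 at 18 h and -0.49 at 48 h, and changes are on the deposited scale unless the spike-in scale is named. Transcripts of the deleted genes LEU2, URA3 and MET17 averaged 1.95, 1.35 and 2.08 in 0.5% glucose, and 1.95, 1.30 and 1.95 in 2% glucose, under the background of 2.29 set by the probe sets for another yeast on the same array. HIS3, of which this strain's allele keeps a part, stood at 5.22 ± 0.06 in 0.5% glucose and 5.24 ± 0.07 in 2% glucose (SD), and none of these 4 genes passed the test.

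Fatty acid breakdown had the highest median change of the 53 gene lists measured. Of 15 genes measured for peroxisomal beta-oxidation, 12 rose in 0.5% glucose and 0 fell, and 9 rose by at least 2-fold. The median change was 1.03, against 0.004 over all genes. In yeast this pathway lies wholly in the peroxisome. It shortens fatty acids to acetyl-CoA and gives off hydrogen peroxide.

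POX1, the acyl-CoA oxidase of the first step, had levels of 8.06, 8.21 and 8.22 in 0.5% glucose, against 6.26, 6.34 and 6.33 in 2% glucose. The groups were far apart, and the difference was 1.85 ± 0.07 (adjusted p = 8.67e-15), or 3.61-fold. FOX2, the multifunctional enzyme that acts next, had 10.82, 10.80 and 10.79 in 0.5% glucose, against 9.49, 9.46 and 9.44 in 2% glucose, and differed by 1.34 ± 0.04 (adjusted p = 9.57e-17). For POT1, the thiolase that releases acetyl-CoA, the levels were 9.32, 9.33 and 9.33 in 0.5% glucose, against 8.39, 8.28 and 8.20 in 2% glucose, a difference of 1.03 ± 0.06 (adjusted p = 2.02e-12). All the core steps thus differed in the same direction with no overlap of the arrays. CTA1 encodes the peroxisomal catalase that removes the peroxide, and it stood at 9.18, 9.29 and 9.26 in 0.5% glucose, against 7.82, 7.79 and 7.89 in 2% glucose. It rose by 1.41 ± 0.06 (adjusted p = 7.27e-15).

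The accessory enzymes moved with the core. ECI1 and DCI1, needed for unsaturated fatty acids, rose by 1.54 and 1.11 on the log2 scale, and SPS19, the dienoyl-CoA reductase, rose by 0.94. PXA1 and PXA2, both parts of the transporter that carries long-chain acyl-CoA into the peroxisome, rose by 1.54 and 1.19. FAA2, which activates medium-chain fatty acids, rose by 0.96, TES1, a thioesterase, by 0.94, and IDP3, the peroxisomal supplier of NADPH, by 1.01. The 3 members that did not pass the test were MDH3 (0.04), the peroxisomal malate dehydrogenase, ANT1 (0.03), the peroxisomal ATP carrier, and CRC1 (0.03), the mitochondrial carnitine carrier. Beside them, FAA4, which activates imported long-chain fatty acids, had levels of 9.10, 9.07 and 9.05 in 0.5% glucose, against 7.67, 7.58 and 7.55 in 2% glucose, and rose by 1.47 with no overlap of the arrays.

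The change of these genes at 24 h was larger than at any other sampled time. The list median at 12, 18 and 48 h was 0.20, 0.19 and 0.32, and the last of these becomes negative on the spike-in scale. For 11 of the 15 genes the 24 h change was above each of the 3 others in tests of the differences, a pattern that 192 of all genes showed (3.52%). For POX1 the changes at those 3 times were 0.30, 0.54 and -0.01, and the 24 h change exceeded the 18 h change by 1.31 ± 0.10 (adjusted p = 1.07e-08).

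The levels over time show in which medium the 24 h cultures stood apart. In 0.5% glucose POX1 averaged 8.21, 8.31, 8.16 and 8.73 at 12, 18, 24 and 48 h, and in 2% glucose it averaged 7.91, 7.77, 6.31 and 8.73. In both media 24 h was the lowest of the 4 times on the deposited scale, by much more in 2% glucose. On the spike-in scale the 24 h minus 48 h step in 0.5% glucose shifts by 0.63, which puts POX1 at 24 h slightly above 48 h there. Within 2% glucose POX1 at 24 h was -1.46 ± 0.07 (adjusted p = 1.65e-12) relative to 18 h and -2.42 relative to 48 h. Within 0.5% glucose the 24 h level differed from that at 18 h by -0.15 ± 0.07 (adjusted p = 0.1). FOX2 averaged 10.47, 10.73, 10.81 and 10.93 in 0.5% glucose and 10.27, 10.35, 9.47 and 10.61 in 2% glucose at the 4 times, so it was lowest at 24 h in 2% glucose alone.

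**Figure D1:**
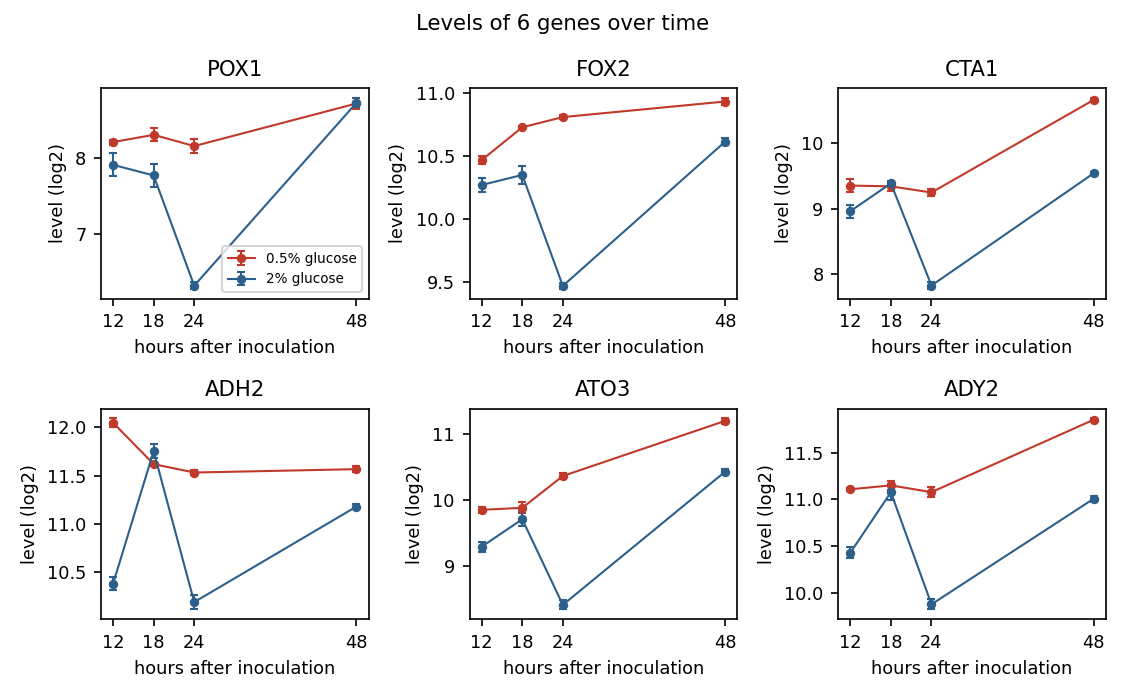
Group means (points) with SD (bars, n = 3 arrays) of 6 genes for fatty acid and 2-carbon metabolism at 12, 18, 24 and 48 h, in 0.5% glucose (red) and 2% glucose (blue), as log2 level. In all 6 panels the 2% line is lowest at 24 h and returns upward by 48 h, which for POX1 is -1.46 relative to 18 h.

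Such a low point at 24 h, below both 18 h and 48 h with an adjusted p under 0.05 in each test, was found in 2% glucose for 13 of the 15 beta-oxidation genes. Of all genes 359 had it (6.59%). In 0.5% glucose 1 of the 15 had it, DCI1, against 315 of all genes (5.78%). High points at 24 h were found for 302 genes in 0.5% glucose (5.54%) and 277 in 2% glucose (5.08%). By sign alone, 14 of the 15 beta-oxidation genes were lowest at 24 h among these 3 times in 2% glucose, on the deposited and on the spike-in scale. In 0.5% glucose 6 were on the deposited scale and 4 on the spike-in scale. These tests use the same 24 h arrays as the comparison of the media, so they describe the difference and are not separate evidence for it.

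Peroxisome assembly and its regulators moved less than the enzymes. Of 25 peroxins and oleate regulators, 14 rose and 5 fell, with a median of 0.22. PEX11, which drives peroxisome division, was at 9.01, 8.99 and 8.95 in 0.5% glucose, against 7.99, 7.92 and 7.96 in 2% glucose, a rise of 1.02 ± 0.05 (adjusted p = 8.77e-13). The activators of the oleate response did not show changes of that size. OAF1 differed by -0.04 (adjusted p = 0.459) on the deposited scale and 0.23 on the spike-in scale, and its partner PIP2 rose by 0.21. The call of PIP2 was lost on the spike-in scale (0.48, adjusted p = 0.0963). OAF3, a repressor of oleate genes, fell by 0.65 on the log2 scale, a call also lost on the spike-in scale (-0.39, adjusted p = 0.19). ADR1, the activator of glucose-repressed genes, was called lower by a change of -0.23, which was positive on the spike-in scale at 0.04.

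Among 21 genes listed for the glyoxylate cycle and gluconeogenesis, with carriers and enzymes for acetate and ethanol, 11 rose and 3 fell. Their median was 0.13. At least 2-fold rises were met by 3 of them, 2 carriers and 1 enzyme. A separate list of 19 genes for acetate and aldehyde metabolism, sharing ACS1 and ALD4 with the first, did not stand out. There 6 rose and 6 fell, near the shares of all genes (31.6% higher and 31.4% lower). The median was 0.05, and 0 genes changed 2-fold in either direction. ATO3, of a family of ammonia and acetate carriers, stood at 10.41, 10.33 and 10.33 in 0.5% glucose, against 8.48, 8.37 and 8.36 in 2% glucose, a rise of 1.95 ± 0.06 (adjusted p = 5.3e-17). ADY2, the acetate permease, was at 11.02, 11.13 and 11.09 in 0.5% glucose, against 9.94, 9.83 and 9.87 in 2% glucose and rose by 1.20 ± 0.05 (adjusted p = 7.05e-15). ADH2, the alcohol dehydrogenase that consumes ethanol, had 11.52, 11.56 and 11.53 in 0.5% glucose, against 10.28, 10.15 and 10.15 in 2% glucose and rose by 1.34 ± 0.05 (adjusted p = 1.2e-15).

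Enzymes further along the route rose by less. ALD4, the mitochondrial aldehyde dehydrogenase, rose by 0.62, ACS1, the acetyl-CoA synthetase of respiring cells, by 0.56, ICL1, isocitrate lyase, by 0.58, FBP1 by 0.55 and PCK1 by 0.45, the last pair being the gluconeogenic bisphosphatase and carboxykinase. CIT3, a mitochondrial citrate and methylcitrate synthase, rose by 1.03. In 2% glucose 11 of the 21 genes had the low point at 24 h, and in 0.5% glucose 0 had it. ADH2 averaged 12.05, 11.62, 11.53 and 11.57 in 0.5% glucose and 10.38, 11.75, 10.19 and 11.18 in 2% glucose at the 4 times, and its difference at 18 h was -0.13 on the deposited scale, with the opposite sign on the spike-in scale. The top of the array scale was 12.57, near which true differences are compressed, and the restricted ADH2 levels were close to it.

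FDH1, formate dehydrogenase, was among the most changed of all genes. Its levels were 7.16, 7.25 and 6.85 in 0.5% glucose, against 4.02, 3.98 and 3.84 in 2% glucose, and it rose by 3.13 ± 0.13 (adjusted p = 2.1e-14), or 8.78-fold. The 2% cultures again held a low point, with 2.65, 6.36, 3.95 and 7.59 at 12, 18, 24 and 48 h. At 48 h the change was -0.87, opposite in sign to that at 24 h.

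The tricarboxylic acid cycle and respiration did not rise with these genes. Of 19 cycle genes, 4 rose and 9 fell, and the median was -0.10 on the deposited scale but 0.17 on the spike-in scale. IDH1 and IDH2, both subunits of the NAD-dependent isocitrate dehydrogenase, fell by 0.77 and 0.93 on the log2 scale. The call of IDH1 was lost on the spike-in scale (-0.51, adjusted p = 0.0735). Of 36 genes of the respiratory chain and ATP synthase, 2 rose and 22 fell, with a median of -0.15 that became 0.12 on the spike-in scale. CYC7 and COX5B, forms of cytochrome c and of oxidase subunit 5 known for use when oxygen is scarce, fell furthest. CYC7 had 7.34, 7.32 and 7.41 in 0.5% glucose, against 9.33, 9.35 and 9.51 in 2% glucose, a change of -2.04 ± 0.08 (adjusted p = 7.69e-15). COX5B changed by -0.93, while its aerobic partner COX5A differed by 0.03 (adjusted p = 0.49). HAP4, the activator of respiratory genes, changed by -0.86.

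Sugar uptake and early glycolysis changed gene by gene. Of 19 hexose transporters and sensors, 4 rose and 8 fell. HXT2, a transporter made when glucose is scarce, had 5.89, 5.70 and 5.97 in 0.5% glucose, against 3.83, 3.73 and 3.78 in 2% glucose and rose by 2.07 ± 0.11 (adjusted p = 6.82e-13). HXT4 had 4.38, 4.36 and 4.10 in 0.5% glucose, against 6.22, 6.08 and 6.13 in 2% glucose and changed by -1.86 ± 0.10 (adjusted p = 1.57e-12). The pair thus moved in opposite directions, each with no overlap of the arrays. HXT7, read by a probe set it may share with a close copy, changed by -0.86, and HXT1, the low-affinity transporter, by -0.76 at levels near background. HXT1 lost its call on the spike-in scale (-0.49, adjusted p = 0.0848). Among 26 genes of glycolysis and fermentation, 4 rose and 10 fell.

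HXK2, the main hexokinase of growth on glucose, had 7.91, 7.86 and 7.84 in 0.5% glucose, against 9.13, 9.19 and 9.15 in 2% glucose, a change of -1.29 ± 0.07 (adjusted p = 7.88e-13). HXK1 changed by -0.65 and the glucokinase GLK1 by 0.02 (adjusted p = 0.803). PYK2, the second pyruvate kinase, rose by 0.55, while CDC19, the main one, stayed within the spread (adjusted p = 0.881). Of the 11 pentose phosphate genes 7 fell and 3 rose, with a median of -0.39. GND1, phosphogluconate dehydrogenase, had 6.50, 6.21 and 6.34 in 0.5% glucose, against 8.11, 8.03 and 8.004 in 2% glucose and changed by -1.70 ± 0.10 (adjusted p = 2.75e-12). TKL1, transketolase, changed by -1.21 and ZWF1, glucose-6-phosphate dehydrogenase, by -0.46, while RKI1, the ribose isomerase, rose by 0.75. ZWF1 lost its call on the spike-in scale (-0.19, adjusted p = 0.545).

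Glycerol genes were mixed, with 3 higher and 3 lower of 10 and a median of -0.05, or 0.22 on the spike-in scale. These counts were near the shares of all genes (31.6% higher and 31.4% lower). GPP2, a glycerol-3-phosphatase, had 6.57, 6.60 and 6.68 in 0.5% glucose, against 8.48, 8.63 and 8.68 in 2% glucose, and changed by -1.98 ± 0.07 (adjusted p = 2.63e-15). Its homologue GPP1 changed by -0.70, although it was 1.99 at 12 h, and its 24 h call was lost on the spike-in scale (-0.44, adjusted p = 0.134). The 3 that rose did so by little, GUT1, glycerol kinase, by 0.15, GUT2, the glycerol-3-phosphate dehydrogenase of mitochondria, by 0.13 and GCY1, a glycerol dehydrogenase, by 0.20. These calls were lost on the spike-in scale, at adjusted p = 0.156, 0.171 and 0.104, that of GUT1 also without replicate 2 of 0.5% glucose (adjusted p = 0.0677) and that of GUT2 without replicate 1 of 2% glucose (adjusted p = 0.0527). Of 21 genes of trehalose and glycogen metabolism, 13 fell and 3 rose, and the median of -0.22 became 0.04 on the spike-in scale. GPH1, glycogen phosphorylase, changed by -0.70 and TSL1, of the trehalose synthase complex, by -0.59. Both calls were lost on the spike-in scale, at -0.43 (adjusted p = 0.136) and -0.33 (adjusted p = 0.275).

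**Figure D2:**
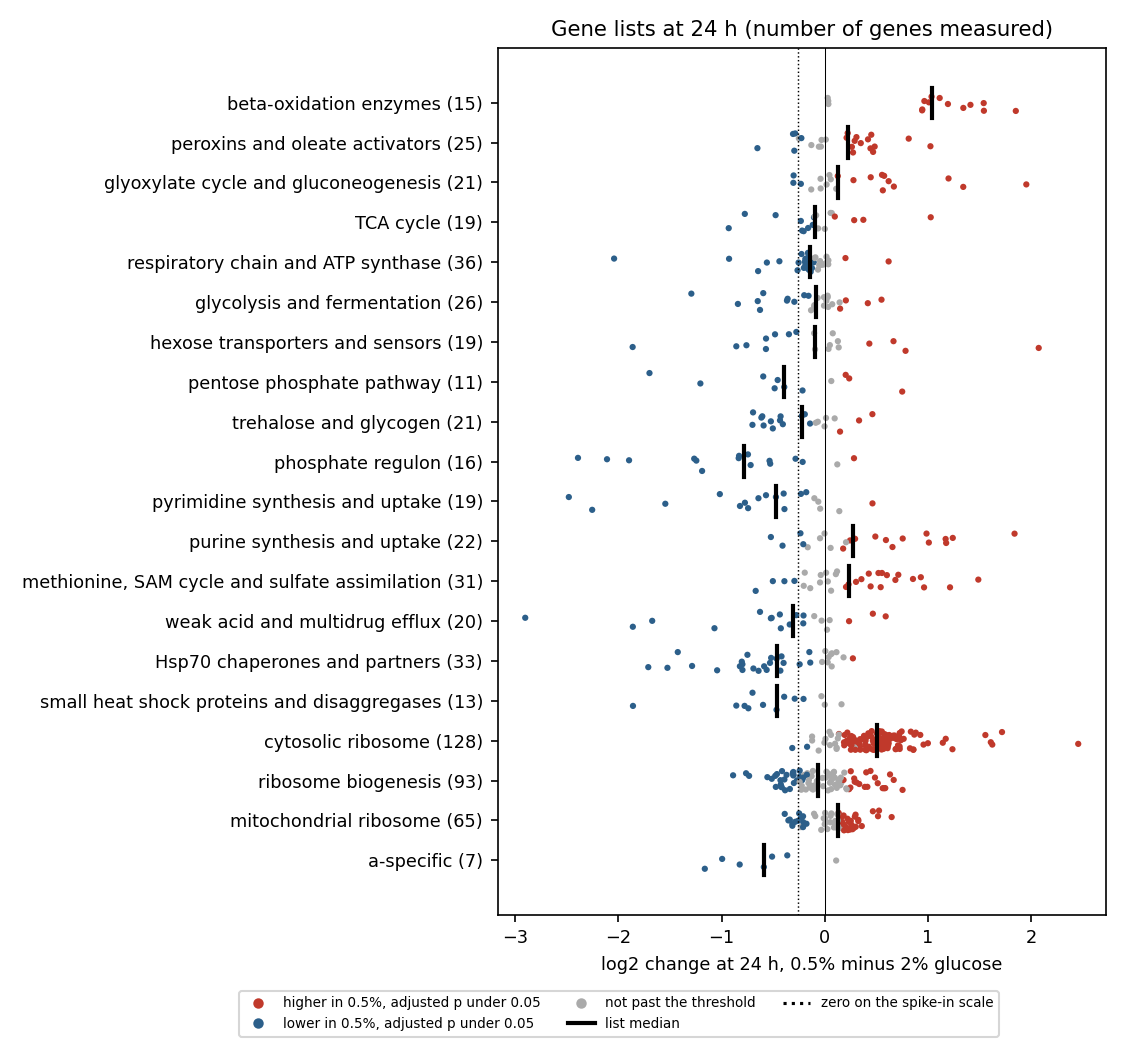
Change at 24 h (log2, 0.5% minus 2% glucose, horizontal) of each measured gene in 20 gene lists, with red and blue dots for genes past adjusted p 0.05, black bars for list medians and a dotted line for zero on the spike-in scale. The beta-oxidation median of 1.03 and the phosphate regulon median of -0.79 lie farthest from zero, and list medians between the dotted line and zero change sign on the spike-in scale.

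The phosphate regulon fell. Most of these genes are switched on by PHO4 when phosphate runs short. The list also counts PHO3, which is in the list of thiamine genes too. Of 16 measured, 14 were lower in 0.5% glucose and 1 was higher, 6 were lower by at least 2-fold, and the median was -0.79. PHO5, the secreted acid phosphatase, had 6.88, 6.88 and 6.74 in 0.5% glucose, against 9.28, 9.23 and 9.16 in 2% glucose, a change of -2.39 ± 0.06 (adjusted p = 1.87e-18). PHO84, the high-affinity phosphate transporter, had 8.76, 8.65 and 8.62 in 0.5% glucose, against 10.65, 10.57 and 10.51 in 2% glucose, a change of -1.90 ± 0.07 (adjusted p = 6.7e-15). For both genes every restricted array lay far under every control array.

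PHM6, of unknown function, changed by -2.11, GIT1, which imports glycerophosphodiesters, by -1.26, and PHO11, an acid phosphatase read by a probe set it may share, by -1.24. Of the vacuolar polyphosphate polymerase 4 genes were measured, with changes of -0.83 for VTC1, -1.19 for VTC3, -0.54 for VTC4 and -0.21 for VTC2. All 4 were called lower, but on the spike-in scale the call of VTC4 was lost (-0.27, adjusted p = 0.374) and VTC2 was positive at 0.05. Also lower were PHO81, the inhibitor of the kinase that holds PHO4 back, with -0.83, PHO8, the vacuolar phosphatase, with -0.72, and SPL2 with -0.74. The exception was PHO89, the sodium-coupled phosphate transporter, which rose by 0.28. On the spike-in scale the calls of PHO8 (-0.45, adjusted p = 0.119), SPL2 (-0.48, adjusted p = 0.0967) and PHO89 (0.55, adjusted p = 0.0513) were lost as well. PHO4 itself differed by -0.06 (adjusted p = 0.349), and by 0.20 on the spike-in scale.

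At 12 h the regulon had not fallen. Its median was 0.23 then, with 9 genes higher and 3 lower, and the 24 h change was below the 12 h change for 15 of 16 (29.4% of all genes). The medians at 18 h and 48 h were -0.44 and -0.40, but on the spike-in scale the lowest median is at 48 h. PHO84 averaged 10.13, 9.07, 8.68 and 10.87 in 0.5% glucose at 12, 18, 24 and 48 h, with its lowest level at 24 h, against 10.18, 10.18, 10.57 and 11.12 in 2% glucose. A low point at 24 h was found for 5 of 16 members in 0.5% glucose (5.78% of all genes) and 2 in 2% glucose (6.59% of all genes). On the spike-in scale 4 genes of the whole array had one in 0.5% glucose.

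**Figure D3:**
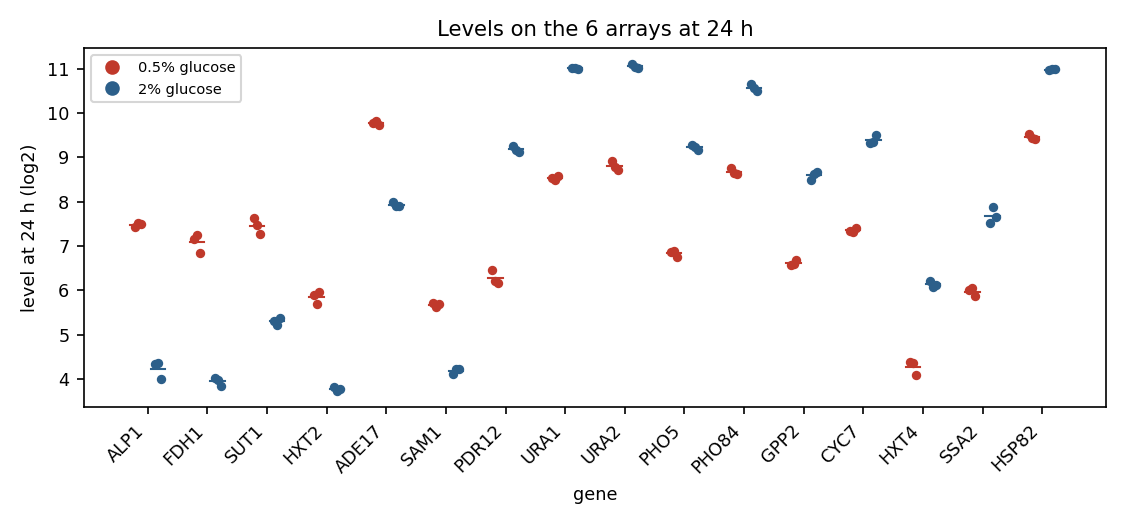
Level at 24 h (log2) on each of the 3 arrays in 0.5% glucose (red, left of each pair) and the 3 in 2% glucose (blue, right), with bars for the means, for 16 genes. ALP1 to SAM1 are higher in 0.5% glucose and PDR12 to HSP82 are lower, and for none of the 16 genes do the arrays of the groups overlap. The same holds for 3835 of all 5449 genes, and it was a condition for naming the genes of largest change.

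The 2 branches of nucleotide synthesis moved apart. Pyrimidine genes were mostly lower, 14 of 19 against 1 higher, with a median of -0.47. Purine genes were mostly higher, 13 of 22 against 4 lower, with a median of 0.27. URA1, dihydroorotate dehydrogenase, had 8.53, 8.49 and 8.58 in 0.5% glucose, against 11.03, 11.03 and 10.99 in 2% glucose and changed by -2.48 ± 0.05 (adjusted p = 2.35e-19). URA2, the enzyme of the first steps, had 8.91, 8.79 and 8.72 in 0.5% glucose, against 11.10, 11.05 and 11.03 in 2% glucose and changed by -2.25 ± 0.06 (adjusted p = 4.85e-18). For both genes the 2 groups of arrays were far apart.

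URA4, the dihydroorotase, changed by -1.02 and FUI1, the uridine permease, by -1.54, while FUR1, which salvages uracil, rose by 0.46. URA3 is deleted in this strain, so both media were compared in cells that cannot complete the pathway and must take up uracil. URA1 was lower at the other times too, with changes at 12, 18 and 48 h of -2.67, -2.61 and -4.02.

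On the purine side ADE17, which completes IMP, had 9.78, 9.82 and 9.72 in 0.5% glucose, against 7.996, 7.91 and 7.90 in 2% glucose and rose by 1.84 ± 0.11 (adjusted p = 1.1e-11). HPT1, which salvages hypoxanthine and guanine, had 7.07, 7.23 and 7.38 in 0.5% glucose, against 5.87, 5.94 and 6.15 in 2% glucose and rose by 1.24 ± 0.08 (adjusted p = 2.82e-11). ADE13 rose by 1.17, ADE1 by 1.01, ADE2 by 0.59 and IMD3, IMP dehydrogenase, by 1.18. Unlike URA1, ADE17 had a different sign at 48 h, with -2.57, and the 24 h change exceeded that by 4.41 ± 0.16 (adjusted p = 7.11e-16).

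Genes linked to purines through one-carbon units also rose in part, 10 of 19 against 4 lower. SHM2, the cytosolic serine hydroxymethyltransferase, rose by 0.96, but the mitochondrial SHM1 was called lower with a change of -0.19, or 0.07 on the spike-in scale. CHA1, which breaks down serine and threonine, changed by -1.48 and SER3, of serine synthesis, by -1.16. In methionine and S-adenosylmethionine metabolism 17 of 31 rose and 4 fell. SAM1, an S-adenosylmethionine synthetase, had 5.70, 5.62 and 5.69 in 0.5% glucose, against 4.11, 4.22 and 4.22 in 2% glucose and rose by 1.49 ± 0.11 (adjusted p = 1.03e-10). Its paralogue SAM2 rose by 0.93, and MMP1, the S-methylmethionine permease, by 1.21. SAM1 had risen more at 18 h, by 2.89, and the 24 h change was -1.41 ± 0.15 (adjusted p = 5.53e-07) relative to it.

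Genes listed for the efflux of weak acids and drugs were mostly lower. The list holds pumps, regulators such as WAR1 and HAA1, and other genes such as SPI1, YGP1 and HSP30. Of 20 genes, 13 fell and 3 rose, with a median of -0.31, or -0.04 on the spike-in scale. PDR12, the pump that exports weak organic acids such as sorbate and benzoate, had the largest fall of all genes tested. Its levels were 6.46, 6.21 and 6.17 in 0.5% glucose, against 9.26, 9.17 and 9.11 in 2% glucose, and the change was -2.90 ± 0.10 (adjusted p = 5.53e-16), a 7.47-fold lower level. The restricted arrays lay far under the control arrays.

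PDR12 was higher at each later time in 2% glucose, with 6.36, 6.76, 9.18 and 10.14 at 12, 18, 24 and 48 h, while in 0.5% glucose it averaged 5.26, 6.13, 6.28 and 4.91. The 24 h change was -2.27 ± 0.14 (adjusted p = 1.32e-10) relative to that at 18 h, among 771 genes lower in this test (14.1%). WAR1, the activator of PDR12, changed by -0.34, a call lost on the spike-in scale (-0.07, adjusted p = 0.83). AQR1, which exports short-chain acids and amino acids, changed by -1.86, TPO1, the polyamine exporter, by -1.67, and PDR15 by -1.07. PDR5, the general drug pump, changed by -0.43, and its call was also lost on that scale (-0.16, adjusted p = 0.615). HAA1, the regulator of acetic acid resistance, rose by 0.59.

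Chaperones were mostly lower. Of 33 genes for Hsp70, Hsp90 and partners, a list that spans the cytosol, the endoplasmic reticulum and mitochondria, 23 fell and 1 rose, with a median of -0.47. SSA2, a constitutive Hsp70, had 6.02, 6.04 and 5.86 in 0.5% glucose, against 7.52, 7.88 and 7.66 in 2% glucose, a change of -1.71 ± 0.09 (adjusted p = 1.38e-12). HSP82, the inducible Hsp90, had 9.52, 9.44 and 9.41 in 0.5% glucose, against 10.97, 10.99 and 10.99 in 2% glucose, a change of -1.52 ± 0.07 (adjusted p = 8.38e-14). YDJ1, the main Hsp40 partner of Hsp70, had 7.74, 7.60 and 7.56 in 0.5% glucose, against 9.09, 9.10 and 8.99 in 2% glucose, a change of -1.42 ± 0.08 (adjusted p = 2.44e-12). In each case every restricted array lay under every control array.

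HCH1 and CPR6, Hsp90 cochaperones, changed by -1.29 and -1.04, HSC82 by -0.75 and SSA1 by -0.59. Of 13 genes in the list named for small heat shock proteins and disaggregases 10 fell and 0 rose. The list is wider than its name and also holds HSP60, HSP10, HSP30 and the regulator HSF1. CUR1, a sorting factor for misfolded proteins, changed by -1.86, HSP42, a small chaperone of aggregates, by -0.86, BTN2 by -0.74 and HSP104, the disaggregase, by -0.47. BTN2 (-0.47, adjusted p = 0.0994) and HSP104 (-0.20, adjusted p = 0.519) lost their calls on the spike-in scale. HSP26 (0) and HSP12 (-0.03 on the deposited scale, 0.23 on the spike-in scale) did not pass the test, with levels near the top of the array scale in both media. The chaperonin and prefoldin list was mixed, with 6 higher and 4 lower of 14.

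Stress regulators did not move together. MSN2 had 7.03, 6.97 and 7.02 in 0.5% glucose, against 6.09, 6.04 and 5.95 in 2% glucose, and rose by 0.98 ± 0.05 (adjusted p = 1.08e-12). Its paralogue MSN4 had 5.43, 5.28 and 5.40 in 0.5% glucose, against 6.77, 6.84 and 6.77 in 2% glucose, and changed by -1.43 ± 0.07 (adjusted p = 2.96e-13). Both encode activators of the general stress response, and here they differed in opposite directions with no overlap of the arrays. RIM15, a kinase needed for entry into quiescence, changed by -0.53, a call lost on the spike-in scale (-0.26, adjusted p = 0.392).

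Ribosomal protein genes were higher as a class. Of 128 measured, 112 rose and 2 fell, with a median of 0.50, and 28 of them had probe sets that may also read a paralogue. RPS9A had 6.24, 6.29 and 6.31 in 0.5% glucose, against 3.66, 3.70 and 4.12 in 2% glucose and rose by 2.46 ± 0.13 (adjusted p = 7.05e-13). ASC1, the ribosomal scaffold protein, had 10.40, 10.41 and 10.35 in 0.5% glucose, against 8.69, 8.71 and 8.61 in 2% glucose and rose by 1.72 ± 0.05 (adjusted p = 2.1e-16). RPS22B rose by 1.62, RPS9B by 1.61 and RPL22A by 1.56.

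The class was much more changed at 12 h, with a median of 1.48, and the 24 h change was below the 12 h change for 120 of the 128 genes (29.4% of all genes). Relative to 18 h it was above for 31 and below for 0 (13.7% of all genes were above). Ribosome biogenesis, which makes new ribosomes, did not follow. Of 93 genes 20 rose and 28 fell, with a median of -0.07 on the deposited scale and 0.20 on the spike-in scale. NOP56, of the nucleolar particle that guides rRNA methylation, changed by -0.89, after a change of 1.69 at 12 h. At 48 h biogenesis had a median of 1.18, and for 87 of 93 genes the 24 h change was below that (39.5% of all genes). Genes of the mitochondrial ribosome were higher in 27 and lower in 13 of 65 cases.

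Amino acid transport held the largest rise. ALP1, a basic amino acid transporter, had 7.43, 7.52 and 7.50 in 0.5% glucose, against 4.33, 4.36 and 4.01 in 2% glucose and rose by 3.25 ± 0.07 (adjusted p = 1.23e-18), or 9.5-fold. CAN1, a related arginine permease, changed by -0.41, and MEP3, an ammonium permease, by -1.51. Over the list 12 of 21 rose and 6 fell. PUT1, the first enzyme of proline breakdown, rose by 0.96, and ARO4, of aromatic amino acid synthesis, by 1.20.

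Smaller groups held single large changes. SUT1, a regulator of sterol uptake, had 7.64, 7.47 and 7.27 in 0.5% glucose, against 5.30, 5.22 and 5.38 in 2% glucose and rose by 2.16 ± 0.09 (adjusted p = 1.2e-14). For autophagy 15 of 30 genes rose and 4 fell, with ATG15, the lipase of autophagic bodies, at 1.22 and ATG5 at 1.05. In NAD metabolism BNA4 rose by 1.20 and BNA1 by 1.04, both in the route from tryptophan. SIR2, the sirtuin often studied in yeast ageing, differed by 0.09 (adjusted p = 0.532), and PNC1, the nicotinamidase, fell with a change of -0.37. The call of PNC1 was lost on the spike-in scale (-0.10, adjusted p = 0.758). SNZ1 and SNO1, the vitamin B6 genes of stationary phase, rose by 1.37 and 1.13.

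Iron genes did not stand out as a list, with counts near the shares of all genes (31.6% higher and 31.4% lower). TIS11, which degrades messages of iron-using proteins, rose by 1.19 and MRS4, the mitochondrial iron carrier, by 0.93, among 8 higher and 9 lower of 26 iron genes. ZRT1, the high-affinity zinc transporter, had 5.99, 5.87 and 5.84 in 0.5% glucose, against 7.40, 7.59 and 7.29 in 2% glucose and changed by -1.53 ± 0.09 (adjusted p = 2.05e-12). Further large falls were those of OYE2, an NADPH oxidoreductase, at -1.87, OPT2, a transporter of the oligopeptide family, at -1.94, and BSC4 at -2.55.

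Mating genes were used to check the strain. All a-specific genes were well above background in both media, and the strain is labelled as mating type a. Of the 7 genes 6 fell, with a median of -0.59, and STE2, the pheromone receptor, was at 7.68, 7.61 and 7.53 in 0.5% glucose, against 8.82, 8.79 and 8.69 in 2% glucose, a change of -1.16 ± 0.06 (adjusted p = 2.01e-13). MFA1, a gene of the a-factor pheromone, differed by 0.11 (adjusted p = 0.115), against -3.21 at 12 h. For all 7 of them the 24 h change was above the 12 h change (36.3% of all genes), and for all 7 it was above the 48 h change (35.2% of all genes).

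Genes specific to the opposite mating type, alpha, were not at background throughout. STE3, the receptor of alpha cells, had 6.004, 5.84 and 5.95 in 0.5% glucose, against 4.57, 4.63 and 4.51 in 2% glucose, and rose by 1.36 ± 0.12 (adjusted p = 1.71e-09). MF(ALPHA)1 had 4.80, 4.92 and 4.50 in 0.5% glucose, against 3.73, 3.53 and 3.34 in 2% glucose, and rose by 1.21. SAG1 averaged 6.63 ± 0.06 in 0.5% glucose and 6.72 ± 0.06 in 2% glucose (SD), and MF(ALPHA)2 averaged 2.43 ± 0.11 in 0.5% glucose and 2.38 ± 0.03 in 2% glucose. Neither passed the test. Whether this has a part in the other results was not tested.

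For many steps yeast keeps a pair of genes, often 1 for growth on sugar and 1 for other states. Of 32 such pairs, 8 were called in opposite directions, 12 in the same direction, and in 12 at least 1 gene did not pass. Opposite calls with signs that held on the spike-in scale were ALP1 (3.25) with CAN1 (-0.41), ASN2 (0.52) with ASN1 (-0.45), both asparagine synthetases, and NDE2 (0.62) with NDE1 (-0.56), both external NADH dehydrogenases of mitochondria. So were TKL2 (0.20) and TKL1 (-1.21), both transketolases. The other opposite pairs held a gene with a fall so small that it turned positive on the spike-in scale, ACS2 beside ACS1, CIT1 beside CIT2, FAA1 beside FAA2 and SHM1 beside SHM2. The calls of CIT1, CIT2 and FAA1 were also lost with single arrays left out (among them replicate 1 of 0.5% glucose for each), at an adjusted p of up to 0.073, 0.0542 and 0.113. On the spike-in scale none of the 8 pairs was called in opposite directions, since CAN1 (adjusted p = 0.656), ASN1 (adjusted p = 0.57), NDE1 (adjusted p = 0.326) and TKL2 (adjusted p = 0.103) lost their calls there. Among pairs called the same way were CYC7 and CYC1, HXK1 and HXK2, HSP82 and HSC82, and SSA1 and SSA2, all lower, and SAM1 and SAM2, both higher. Of these, CYC1 (adjusted p = 0.198), HXK1 (adjusted p = 0.193), HSC82 (adjusted p = 0.0923) and SSA1 (adjusted p = 0.283) also lost their calls on the spike-in scale.

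**Figure D4:**
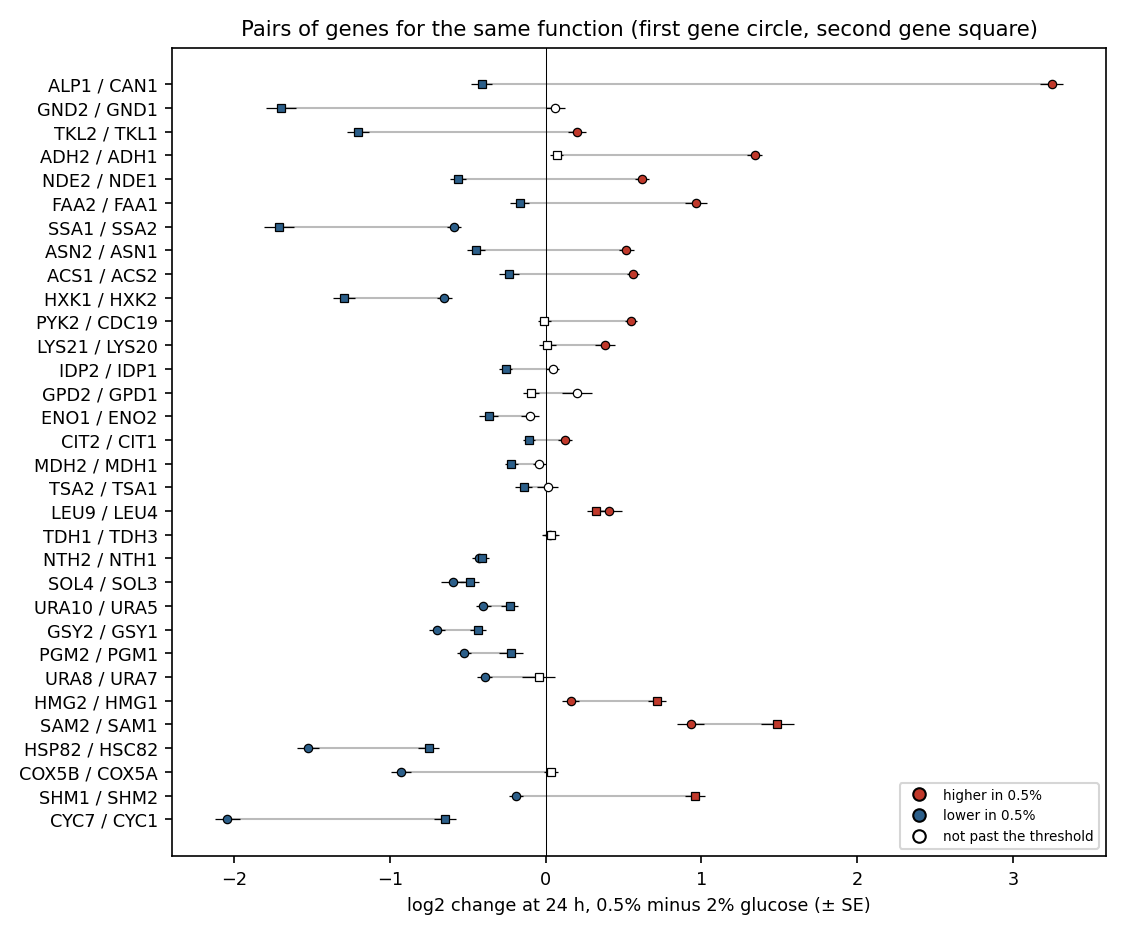
Change at 24 h (log2, 0.5% minus 2% glucose, with SE bars, n = 3 arrays each) of the first gene (circle) and second gene (square) of 32 pairs with the same function, red where called higher, blue where called lower, white where not past adjusted p 0.05. The widest gap is that of ALP1 and CAN1, at 3.25 and -0.41, and blue symbols between -0.27 and 0 turn positive on the spike-in scale.

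Set against the other times, the 24 h effect was between those at 18 h and 48 h in size. The SD of the changes over all genes was 0.426 at 24 h, against 0.576 at 12 h, 0.303 at 18 h and 0.829 at 48 h. Across genes, which are not independent replicates, the 24 h changes correlated with those at 18 h at r = 0.756, with those at 12 h at 0.367 and with those at 48 h at 0.383, all from separate arrays. Of the 93 genes at least 2-fold lower at 24 h, 53 (57%) were also 2-fold lower at 48 h, which was 9.14% of the 580 such genes there. Of the 81 at least 2-fold higher, 21 (25.9%) were also 2-fold higher at 48 h, or 4.42% of 475.

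Compared with 18 h, the test of the difference found 748 genes with a higher and 771 with a lower effect at 24 h. Besides PDR12, ZRT1 and the fatty acid genes, WSC4, a cell wall stress sensor, changed by -1.26 at 24 h and -0.05 at 18 h, the second value turning positive on the spike-in scale. SUR7, of the plasma membrane domain called eisosome, changed by -0.61 at 24 h and 0.61 at 18 h. Its 24 h call was lost on the spike-in scale (-0.34, adjusted p = 0.25). SLZ1 rose by 1.33 at 24 h and changed by -0.43 at 18 h. A 24 h effect lower than at each other time was found for 159 genes (2.92%), PHO84, YDJ1, GPP2 and CUR1 among them.

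Compared with 48 h, 1918 genes had a higher and 2153 a lower effect at 24 h, and some of the most extreme changed sign. NSR1, a nucleolar protein, changed by -0.30 at 24 h on the deposited scale and -0.04 on the spike-in scale, and by 2.36 at 48 h. SNU13, of small nucleolar and spliceosomal particles, changed by -0.42 at 24 h and 2.27 at 48 h. On the spike-in scale both 24 h calls were lost (adjusted p = 0.92 for NSR1 and 0.638 for SNU13, at -0.15). In the other direction ENO2, enolase, changed by -0.37 at 24 h and -4.02 at 48 h, and ERG5, of ergosterol synthesis, by 0.29 and -3.31 at the same times. ENO2 lost its 24 h call on the spike-in scale (-0.10, adjusted p = 0.762). The 24 h calls of NSR1 and ERG5 were lost with single arrays left out (replicate 2 or 3 of 2% glucose, or replicate 1 or 2 of 0.5% glucose). The adjusted p was then up to 0.134 for NSR1 (without replicate 3 of 2% glucose) and 0.152 for ERG5 (without replicate 1 of 0.5% glucose).

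**Figure D5:**
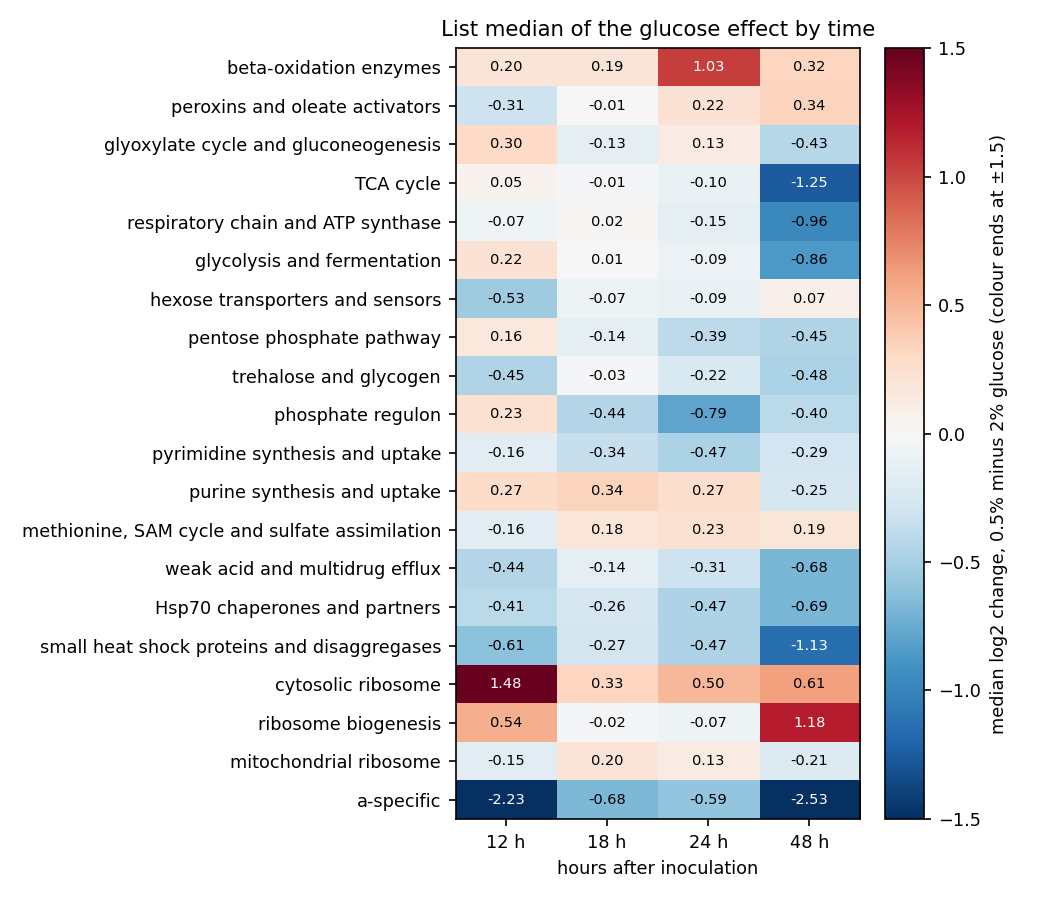
Median change (log2, 0.5% minus 2% glucose, printed and as colour) of 20 gene lists at 12, 18, 24 and 48 h on the deposited scale. The beta-oxidation list has its highest median at 24 h, 1.03, and the phosphate regulon its lowest, -0.79. On the spike-in scale all medians shift by 0.40, 0.16, 0.27 and -0.49 at the 4 times, which turns small ones to the other sign. The lowest phosphate regulon median is then at 48 h.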

How the data were processed

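Log2 signals of all 24 arrays, as deposited by the authors, were used. From the values, they ranged from 0.60 to 12.57 and were quantile normalized over all 10928 probe sets. Base 2 is an assumption for this log scale, since the sources used here do not give it. Partek is named per the submitters' processing notes, with no role or version. How background was corrected and probes were combined, and any batch of arrays, is not given in sources used here. Of the probe sets, 5498 named 1 gene of the species in the platform annotation. They gave 5449 genes, with the highest-mean probe set taken for the 47 genes that had several. Symbols of 12 genes were updated through RefSeq, and 118 genes were read by probe sets that can be shared with a related gene. The 1746 fission yeast probe sets set the background at their 95th percentile, 2.29, and 5370 genes had a 24 h group mean above it.

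The 8 groups entered 1 linear model (limma 3.58.1, R 4.3.3), with moderated statistics and Benjamini-Hochberg adjustment over the 5449 genes of each contrast. The contrasts were 0.5% minus 2% glucose at each time, the 24 h effect minus each other effect, and 24 h minus 18 h and minus 48 h within each medium. The within-medium contrasts were added after the levels had been seen. On simulated arrays with 50 genes changed at each size, the fit recovered 28, 48, 50 and 50 genes for log2 changes of 0.25, 0.5, 1 and 2, with 18 false among 194 calls. Far fewer genes were changed there than the 3435 called at 24 h. The simulated noise was independent between genes and held no shift of whole arrays, so these rates need not hold for the real arrays.

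The members, the 54 gene lists (53 measured, with 1297 of 1341 genes), the 32 pairs and the spike-in scale were chosen with earlier results of these data known, so lists get counts and medians, with no test. Genes were named by a rule, the 14 highest and 14 lowest changes, members of the lists and pairs, a panel, and the 6 extremes of each difference contrast with 18 h and 48 h. The 14 highest and 14 lowest were taken among genes with a standard name, a call, arrays that did not overlap and a 24 h mean above background. For them the call and the lack of overlap were thus conditions of the choice. The extremes of the difference contrasts had to pass the threshold there and at 24 h. Same-numbered arrays correlated in their deviations from the group means at 24 h (0.368, 0.117 and 0.360), above the 0.1 used as the rule for a pairing, which comes from the arrays and not the labels. The replicate number was therefore tried as a block. Other alternatives were quantile normalization over the tested probe sets, median centring, scaling on 12 poly-A spike-in probe sets, removal of dim genes, a variance trend, array weights, only the arrays compared, averaging of probe sets per gene, and each 24 h array left out. No array column was left unused, and 3 arrays a group limit the precision. The p-values measure the spread between cultures, which the series design calls biological triplicates. Figures were drawn with matplotlib 3.10.9.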

Additional observations from a re-analysis of the deposited data

Results flagged for a closer look

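Of the 171 genes named here, 6 changed at least 2-fold at 24 h and at least 2-fold in the opposite direction at another time, with the difference between the effects past the threshold in limma. All of them kept both signs on the spike-in scale. Opposite calls of any size were found for 29 named genes against 12 h, 7 against 18 h and 36 against 48 h. The genes were chosen with earlier results of these data known.

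HXK2, the main hexokinase of growth on glucose, changed by -1.29 at 24 h and by 1.25 at 12 h, a difference of -2.55 ± 0.10 (adjusted p = 7.83e-15). It averaged 8.51, 7.80, 7.87 and 5.17 in 0.5% glucose and 7.26, 8.13, 9.16 and 9.07 in 2% glucose at 12, 18, 24 and 48 h. TKL1, transketolase, had the same turn, with -1.21 at 24 h and 1.86 at 12 h, a difference of -3.06 ± 0.10 (adjusted p = 7.75e-16). SUT1, the regulator of sterol uptake, turned the other way, with 2.16 at 24 h and -1.71 at 12 h, a difference of 3.87 ± 0.12 (adjusted p = 5.77e-16).

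Against 48 h the purine gene ADE17 changed by 1.84 at 24 h and -2.57 at 48 h, a difference of 4.41 ± 0.16 (adjusted p = 7.11e-16). ADE1 of the same pathway changed by 1.01 and -1.39 at these times, a difference of 2.39 ± 0.10 (adjusted p = 3.14e-15). CIT3, the citrate and methylcitrate synthase, changed by 1.03 and -1.58, a difference of 2.61 ± 0.09 (adjusted p = 1.06e-16).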

How the results depend on the processing

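Counts of genes past the threshold stayed within 1.5 times the reported ones under every alternative except scaling on the spike-ins of each array, which shifts the median change at 24 h to 0.27 and adds the spread of the spike-ins. On that scale 1065 genes were higher and 150 lower at 24 h, and 189 and 46 by at least 2-fold. The 24 h effect was higher than that at 18 h for 31 genes and lower for 5, higher than that at 12 h for 158 and lower for 601, and lower than that at 48 h for 133. In 0.5% glucose 4 genes then had a low point at 24 h and 23 a high point, and in 2% glucose 51 had a low point and 4 a high point. Of the 171 genes named here, 35 lost their call on the spike-in scale and 6 turned from lower to a positive difference, ACS2 (0.032), ADR1 (0.040), CIT1 (0.16), FAA1 (0.10), SHM1 (0.074) and VTC2 (0.052). The cause of the spike-in difference was not tested.

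With each 24 h array left out in turn, 1578 to 1622 genes were higher and 1582 to 1639 lower at 24 h, and 78 to 85 and 91 to 98 by at least 2-fold. The difference from 18 h was higher for 620 to 713 genes and lower for 663 to 761. CIT1, CIT2, ERG5, FAA1, GUT1, GUT2 and NSR1 lost their calls with at least 1 array left out. With the replicate block 1792 genes were higher and 1801 lower, and no named gene changed its call. With it the 24 h effect was higher than that at 18 h for 895 genes and lower for 882, and the low and high points within a medium were not fitted with the block. The 79 genes without a 24 h mean above background, and genes near the top of the scale, limit what small changes can be read.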

Other observations

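Histone genes differed little between the media but had a low point at 24 h in the restricted cultures. Of 9 measured, 8 were lower at 24 h than at 18 h and 48 h in 0.5% glucose (5.78% of all genes), and 1 in 2% glucose (6.59% of all genes). HTA1, a gene of histone H2A, averaged 10.50, 10.27, 9.89 and 10.97 in 0.5% glucose and 10.28, 9.92, 9.45 and 9.54 in 2% glucose at 12, 18, 24 and 48 h, with a change of 0.43 at 24 h. DNA replication genes had such a low point in 7 of 38 cases in 0.5% glucose and 10 in 2% glucose. The same shares over all genes stand beside both lists. None of these counts has a test of its own, and on the spike-in scale low points were found for 4 genes in 0.5% glucose over the whole array.

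Cell cycle genes were mixed, with 5 higher and 9 lower of 22. PCL1, a G1 cyclin, had 4.04, 4.26 and 4.58 in 0.5% glucose, against 2.61, 2.67 and 2.84 in 2% glucose, and rose by 1.59 ± 0.11 (adjusted p = 9.41e-11) in limma. CLN3, the cyclin that couples growth to division, changed by -0.62, a call lost on the spike-in scale (-0.35, adjusted p = 0.236). AMN1, which acts in the separation of daughter cells, changed by -1.01, among 7 lower and 1 higher of 11 such genes. Genes of ergosterol synthesis rose in 15 and fell in 7 of 30 cases, with a median of 0.15 at 24 h and -0.92 at 48 h. THI4, of thiamine synthesis, rose by 0.95, and RNR3, a damage-inducible subunit of ribonucleotide reductase, by 0.74.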
